A study of Mus musculus with 9 samples.

Results

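The regions described here are stretches of open chromatin that were called in all 3 ATAC-seq libraries of a mouse osteosarcoma line carrying p53R172H/- and in none of 6 libraries of the lines carrying p53R245W/- or p53-/-. Peaks of all 9 deposited lists that shared at least 1 bp were joined into regions, each counted as called in every library with a peak there. Of 124230 merged regions, 12214 met this rule (9.83%); they are called R172H-only regions below. By the mirrored rule 7188 regions were R245W-only (5.79%) and 3402 were null-only (2.74%), and 36473 regions were called in all 9 libraries. The members were chosen by the calls themselves, so their calls and peak strengths are given as a description, without a test.

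The 3 lines were grown from primary mouse osteosarcomas, which are bone tumours, in DMEM with fetal bovine serum and antibiotics. The R172H line has 1 p53 allele with the R172H substitution over a null allele, and the R245W line has R245W over a null allele. Both alleles of the null line (p53-/-) are null, so all 3 lines lack wild-type p53. The labels do not say how the null alleles were made. Each genotype is 1 line with 3 libraries, so genotype and line cannot be told apart (whether the 3 libraries are separate cultures is not stated in the labels). P-values therefore measure the spread between libraries, which may be technical.

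In ATAC-seq the Tn5 transposase inserts adapters where DNA is not wrapped by nucleosomes, so peaks mark promoters, enhancers and other bound elements. Promoters of widely used genes tend to be open in most cell types, whereas enhancers far from genes differ between cell types and cell states. R172H and R245W are missense changes in the DNA-binding domain of p53, the tumour suppressor whose loss is frequent in osteosarcoma. An open region is not evidence that a nearby gene is transcribed.

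The R172H-only regions at promoters are shown first, because their sequences can be read directly. Of 21263 RefSeq promoter windows of protein-coding genes (250 bases before to 50 bases after a start), 181 windows of 168 genes lay in an R172H-only region (0.851%). The 8 below were chosen because they are among the strongest or belong to genes described later. Each line gives the 250 bases before the start on the gene's strand, 5′ to 3′, in GRCm38.p6. Capitals mark matches, on either strand, to any of the searched motifs. These were TGANTCA for the AP-1 factors, TGTGGT for the RUNX factors of bone and blood, GGAATG for the TEAD factors that act with YAP, CCGGAAGT for the ETS factors, CACGTG for E-box factors such as MYC, GGGCGG for Sp and KLF factors, and TATAAA for the TATA box. The p53 half-site was searched as well and had no match in the stretches printed.
Sez6l chr5:112577199-112577448 (minus strand): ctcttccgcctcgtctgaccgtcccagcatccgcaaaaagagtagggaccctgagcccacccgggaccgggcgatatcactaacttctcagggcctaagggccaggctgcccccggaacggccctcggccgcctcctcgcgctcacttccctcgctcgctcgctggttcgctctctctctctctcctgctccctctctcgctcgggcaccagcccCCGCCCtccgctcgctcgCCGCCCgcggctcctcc
Upk3b chr5:136038246-136038495 (plus strand): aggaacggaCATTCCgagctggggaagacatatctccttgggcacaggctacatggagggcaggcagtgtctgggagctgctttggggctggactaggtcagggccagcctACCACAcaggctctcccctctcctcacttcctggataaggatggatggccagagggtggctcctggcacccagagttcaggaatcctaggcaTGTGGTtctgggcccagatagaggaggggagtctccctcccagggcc
Aldh1a2 chr9:71215539-71215788 (plus strand): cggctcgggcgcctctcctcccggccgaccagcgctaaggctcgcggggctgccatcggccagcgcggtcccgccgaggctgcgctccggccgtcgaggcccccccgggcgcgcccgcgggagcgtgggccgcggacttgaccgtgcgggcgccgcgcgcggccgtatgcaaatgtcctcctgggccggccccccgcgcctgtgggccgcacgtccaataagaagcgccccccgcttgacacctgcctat
C1qtnf7 chr5:43515319-43515568 (plus strand): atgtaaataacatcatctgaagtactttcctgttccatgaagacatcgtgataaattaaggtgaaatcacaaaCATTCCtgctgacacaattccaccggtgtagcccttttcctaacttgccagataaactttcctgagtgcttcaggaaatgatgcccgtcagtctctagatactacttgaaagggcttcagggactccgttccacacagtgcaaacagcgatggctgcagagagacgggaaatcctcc
Igf2 chr7:142658805-142659054 (minus strand): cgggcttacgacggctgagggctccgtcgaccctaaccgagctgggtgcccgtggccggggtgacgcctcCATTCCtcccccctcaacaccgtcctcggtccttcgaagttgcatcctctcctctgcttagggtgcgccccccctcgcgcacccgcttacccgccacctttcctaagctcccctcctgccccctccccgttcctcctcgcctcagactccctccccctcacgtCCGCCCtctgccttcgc
Tshz2 chr2:169632259-169632508 (plus strand): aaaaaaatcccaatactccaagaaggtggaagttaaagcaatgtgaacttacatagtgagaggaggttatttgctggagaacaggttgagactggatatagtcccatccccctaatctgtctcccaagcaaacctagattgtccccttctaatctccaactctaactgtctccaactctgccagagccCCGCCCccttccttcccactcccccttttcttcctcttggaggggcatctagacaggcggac
Il1rn chr2:24336610-24336859 (plus strand): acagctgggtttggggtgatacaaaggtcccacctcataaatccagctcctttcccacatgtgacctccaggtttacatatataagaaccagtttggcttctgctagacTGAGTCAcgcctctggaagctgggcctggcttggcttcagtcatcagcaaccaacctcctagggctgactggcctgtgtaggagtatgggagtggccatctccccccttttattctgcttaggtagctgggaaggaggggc
Il33 chr19:29924863-29925112 (plus strand): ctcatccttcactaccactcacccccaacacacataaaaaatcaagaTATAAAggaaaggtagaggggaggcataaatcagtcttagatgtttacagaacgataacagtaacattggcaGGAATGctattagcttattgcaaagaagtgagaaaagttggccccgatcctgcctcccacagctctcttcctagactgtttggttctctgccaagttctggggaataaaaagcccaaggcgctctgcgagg

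These promoters differed widely in composition. The Aldh1a2 stretch held 40 CpG dinucleotides in 250 bases at 77.6% G and C, and none of these letters matched. The Sez6l stretch held 26 CpG and 2 GGGCGG matches. The Upk3b stretch held only 2 CpG, with 2 TGTGGT matches and 1 GGAATG match, and the Il1rn stretch held 1 CpG and 1 TGANTCA match. C1qtnf7, Igf2 and Il33 each had 1 GGAATG match. A match is a run of letters and not a bound site, and the printed bases do not always include the summit of the peak.

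Over all 181 windows, the R172H-only promoters were poorer in CpG than promoters open in every library. The median ratio of observed to expected CpG was 0.369, against 0.792 in windows open in all 9 libraries and 0.567 in all windows. A ratio above 0.6, a common mark of a CpG island, was found in 26.0% of R172H-only windows, 32.3% of R245W-only windows, 21.2% of null-only windows and 78.5% of windows open in all 9. Low CpG content was therefore shared by the promoters called in 1 line alone, whichever the line. GGAATG was present in 21.0% of R172H-only windows, against 11.5% of R245W-only windows, 9.09% of null-only windows and 13.6% of all windows. TGANTCA was present in 9.39% of R172H-only windows, against 12.4% of R245W-only windows and 6.99% of all windows. TGTGGT was present in 14.4% of R172H-only and 14.97% of all windows, and CACGTG in 6.08% and 7.84%. CCGGAAGT, found in 8.93% of windows open in all 9 libraries, was present in 2 of the 181 R172H-only windows (1.105%). GGGCGG was present in 40.3% of R172H-only windows and 69.1% of windows open in all 9. The p53 half-site was present in 11.0% of R172H-only windows, against 10.1% of R245W-only, 6.06% of null-only and 7.37% of all windows. TATAAA was present in 10.5% of R172H-only windows and 12.6% of all windows. The null-only share rests on 33 windows.

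At the promoters shown, the 3 R172H libraries gave similar heights. Heights are given as the pile-up, the number of overlapping reads or fragments at the summit, recovered from the deposited fold and p-value. Sez6l, a neuronal membrane protein gene, had pile-ups of 241, 294 and 252 in R172H libraries 1, 2 and 3, with summits within 31 bp of the start. Upk3b, which encodes a uroplakin of epithelial and mesothelial surfaces, had 192, 201 and 194, with summits 30 to 55 bp before the start. Aldh1a2, the retinaldehyde dehydrogenase that makes retinoic acid in embryonic mesoderm, had 146, 160 and 148. None of these regions had a peak in any R245W or null library. C1qtnf7, a secreted protein of the C1q and TNF family, had 128, 139 and 141, and Igf2, the fetal growth factor gene, had 133, 150 and 139 at an internal start. Il33, the alarmin cytokine gene, had 112, 132 and 130, and Il1rn, the interleukin-1 receptor antagonist gene, had 90, 109 and 100. Of the 168 genes, 154 had no other promoter window open in all 9 libraries, and 14 had a second window that was open in all 9.

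A group of microRNA hairpins also fell in R172H-only regions. MicroRNAs are short RNAs that recognise transcripts through their seed, bases 2 to 8. Of 1005 miRNA hairpins in the RefSeq table, 11 lay in an R172H-only region (1.09%), against 4 in R245W-only and 1 in null-only regions. These classes differ in size (12214, 7188 and 3402 regions), so the counts do not show a surplus in R172H. Regions called in all 9 libraries held 111 hairpins, and 824 lay in no region. The miRNA genes were looked up after the values had been seen. Of the 11, 7 were Mir344 family members that lie along chr7:61682894-62085646, a stretch of 403 kb that overlaps no protein-coding gene of the table. Their mature sequences are shown with the seed in capitals, since the members share seeds.
miR-344d-3p: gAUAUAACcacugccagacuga
miR-344d-1-5p: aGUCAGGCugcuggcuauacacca
miR-344d-2-5p: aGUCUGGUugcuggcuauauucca
miR-344d-3-5p: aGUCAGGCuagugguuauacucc
miR-344e-3p: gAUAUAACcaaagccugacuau
miR-344e-5p: cAGGCUUCuggcuauauucc
miR-344b-3p: cAUUUAGCcaaagccugacugu
miR-344b-5p: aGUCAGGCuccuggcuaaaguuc
miR-344-3p: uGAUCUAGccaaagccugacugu
miR-344-5p: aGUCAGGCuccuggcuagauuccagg
miR-344i: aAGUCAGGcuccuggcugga

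The seed GUCAGGC was shared by 4 of these mature miRNAs (miR-344-5p, miR-344b-5p, miR-344d-1-5p and miR-344d-3-5p). The seed AUAUAAC was shared by miR-344d-3p, which all 3 Mir344d hairpins encode, and miR-344e-3p. Mir344d-2 had pile-ups of 175, 213 and 221 in R172H libraries 1, 2 and 3, Mir344-2 had 205, 182 and 193, and Mir344d-3 had 141, 143 and 153. Mir344d-1 had 129, 137 and 125, and Mir344i had 63, 77 and 53. The weakest were Mir344b with 41, 42 and 36 and Mir344e with 30, 40 and 34.

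More of the stretch was called in R172H than in the other lines. Of 19 merged regions along it, 15 had a peak in each R172H library and 13 were R172H-only. The other 2 of the 15, at Mir344c and Mir344, were called in all 3 R245W libraries and in no null library. Mir344g had a peak in 2 of 3 R172H libraries, and Mir344h-1, Mir344h-2 and Mir344f lay in no region. The hairpins are related copies, whose identity was not measured, and how reads that map to several places were treated is not given in the sources used here; its part in these calls was not tested. The other hairpins in R172H-only regions were Mir5110, with 163, 186 and 185, and the weaker Mir1247, Mir3962 and Mir7685.

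Most R172H-only regions were weak to middling peaks. Within an R172H library they took up 16.7% ± 0.214 of the peaks (SD, n = 3) and 14.03% of the peak length, 7.80 ± 0.209 Mb. The corresponding share was 9.37% ± 0.252 of peaks for R245W-only regions in R245W libraries and 5.20% ± 0.0336 for null-only regions in null libraries (SD, n = 3 each). The median pile-up was 40, 44 and 39 in R172H libraries 1, 2 and 3, against 55, 58 and 55 over all peaks of the same libraries. The median fold over the local background, as the authors' peak caller gave it, was 5.68 ± 0.0320 for R172H-only regions in R172H libraries. It was 4.74 ± 0.116 for R245W-only regions and 4.66 ± 0.0202 for null-only regions in their own libraries (SD, n = 3 each).

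Strength was ranked by the percentile of −log10 q within a library. R172H-only regions had a median percentile of 39.0 ± 1.15 in R172H libraries, against 30.4 ± 2.15 for R245W-only and 28.9 ± 0.374 for null-only regions in theirs (SD, n = 3 each). By the lowest percentile over the 3 R172H libraries, the median member stood at 32.3, 3445 members (28.2%) were above 50 and 73 (0.598%) were above 90. By pile-up, the R172H libraries ranked the members alike, with Spearman correlations of 0.929 to 0.932 across members. Across regions called in all 9 libraries the same pairs reached 0.989. Both are a description, since regions are not replicates. The median coefficient of variation of the background-scaled pile-up over the 3 libraries was 10.5%, and in 1204 members (9.86%) the highest library exceeded the lowest by over 1.5 times.

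A region without a call is not a closed region, because each list holds only peaks past the threshold. The lowest peaks of the 6 other libraries, at the 5th percentile of each list, reached at most 3.79 times the background pile-up. In 11103 members (90.9%) every R172H library was above that level, and in 5742 (47.0%) every one was above double that level. The background pile-up itself, a relative measure of depth, was lower in R172H libraries (4.77 to 5.36) than in R245W libraries (5.65 to 6.39) and overlapped with null libraries (5.02 to 5.80). In bulk libraries, fewer cells with an open site and a less open site in every cell cannot be told apart.

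At the edge of the rule, 4123 regions were called in 2 of 3 R172H libraries and none of the other 6; their median lowest percentile was 8.99 and the highest was 61.7. Another 1689 had calls in each of the 3 R172H libraries plus 1 of the other 6, with a median lowest percentile of 31.4, close to that of the members. In that 1 other library, R245W in 1123 cases and null in 566, the peak stood at a median percentile of 7.18. The strongest of these just outside the rule lay near Pgr, the progesterone receptor gene, at a lowest percentile of 96.6 in R172H and 10.4 in R245W library 2. The weakest just inside it, a region within Tshz2, stood at 0.00549 in its weakest R172H library.

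The strongest R172H-only region lay at Wt1, a zinc-finger transcription factor of kidney, gonad and mesothelium. At chr2:105126149-105127670 it covered 1 end of the gene, with pile-ups of 597, 597 and 582 in R172H libraries 1, 2 and 3 and no call in the other lines. Its lowest percentile was 98.6. Sgms1, which encodes a sphingomyelin synthase, held the next, 16824 bp inside the gene at chr19:32372091-32373061, with 459, 495 and 452. A region at chr14:106393354-106394807 with 547, 574 and 540 lay 257492 bp from its nearest gene end, that of Trim52. These 3 had a lowest percentile of 98.1 or more.

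The other regions among the 10 strongest were also away from gene ends. A region 55944 bp from Kcnj2, an inward rectifier potassium channel gene, had 477, 519 and 495, and 1 within St8sia1, the GD3 ganglioside synthase gene, had 458, 530 and 500. Regions of 350 to 512 lay 190486 bp from Ipo5, an importin gene, 10096 bp from Lbp, the lipopolysaccharide-binding protein gene, and within Ift81, an intraflagellar transport gene, and Maml3, a Notch coactivator gene. Another, 35986 bp from Speer4f1, had 389, 444 and 385.

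**Figure D1:**
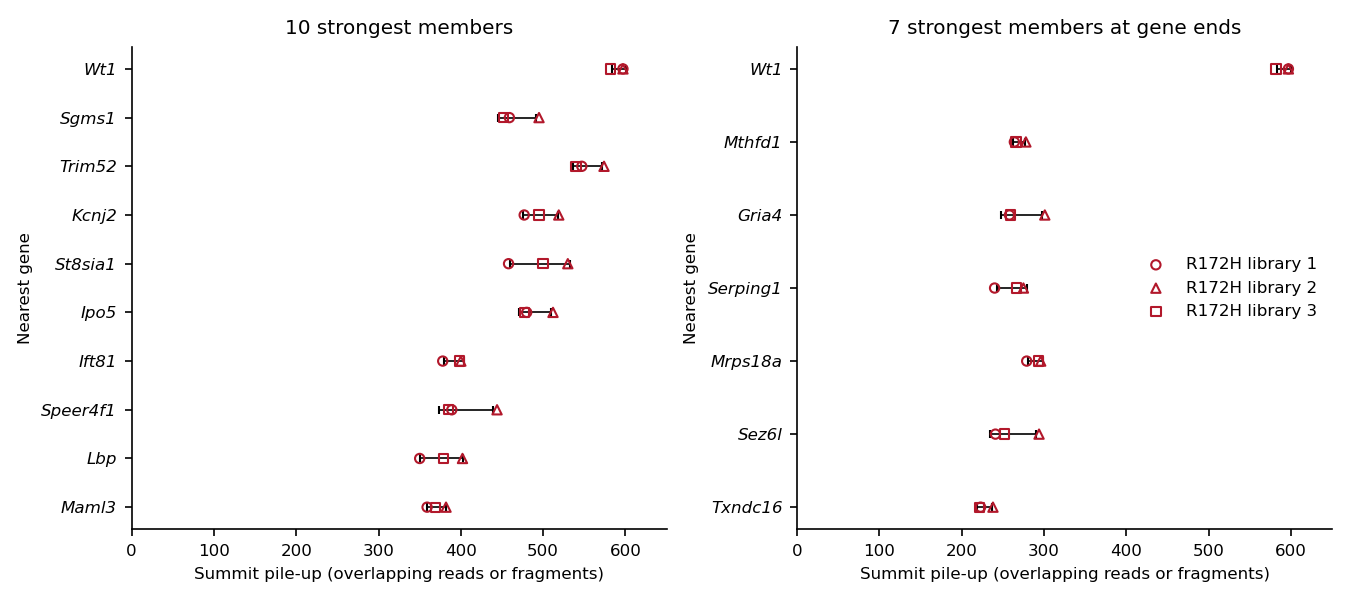
Summit pile-up (x axis, overlapping reads or fragments) of the 10 strongest R172H-only regions (left) and the 7 strongest within 1000 bp of a gene end (right) in the 3 R172H libraries; each symbol is a library and bars give the mean ± SD (n = 3). Wt1 stands highest with 597, 597 and 582, and no region shown has a peak in the R245W or null lists.

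At gene ends, the regions after Wt1 were well below it, with Zcchc3 the highest of them. A gene end is either end of a RefSeq gene span, since the gene table holds no strand. Mthfd1, a folate-cycle enzyme gene, had 264, 278 and 266 in R172H libraries 1, 2 and 3, and Gria4, an AMPA glutamate receptor subunit gene, had 258, 301 and 259. Serping1, the C1 inhibitor gene, had 240, 275 and 267, Mrps18a, a mitochondrial ribosomal protein gene, had 279, 296 and 293, and Txndc16 had 223, 238 and 222. Sulf1, which encodes an enzyme that trims heparan sulfate, had 223, 220 and 222. Zcchc3 reached 448, 450 and 435 but at a fold of only 5.02 ± 0.271 (SD, n = 3), against 11.9 ± 0.642 at Wt1, so its local background was high.

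R172H-only regions were mostly distal. Only 515 of 12214 (4.22%, Wilson 95% interval 3.87 to 4.59, counting error only) lay within 1000 bp of a gene end. The share was 6.68% for R245W-only regions, 3.56% for null-only regions, 32.1% for regions called in all 9 libraries and 13.9% for all regions. The median distance to a gene end was 37.0 kb for R172H-only regions, 28.7 kb for R245W-only, 28.3 kb for null-only, 7.66 kb for regions called in all 9 and 17.1 kb for all regions. More than 100 kb from any gene end lay 26.1% of R172H-only regions, 22.9% of R245W-only, 20.7% of null-only and 8.39% of regions called in all 9. A gene span was overlapped by 48.8% of R172H-only regions and 56.5% of all regions. Their median width was 701 bp, against 614 bp for R245W-only, 583 bp for null-only and 1191 bp for regions called in all 9. Distal position was thus common to regions called in 1 line; no test over regions was made, as regions are not replicates.

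**Figure D2:**
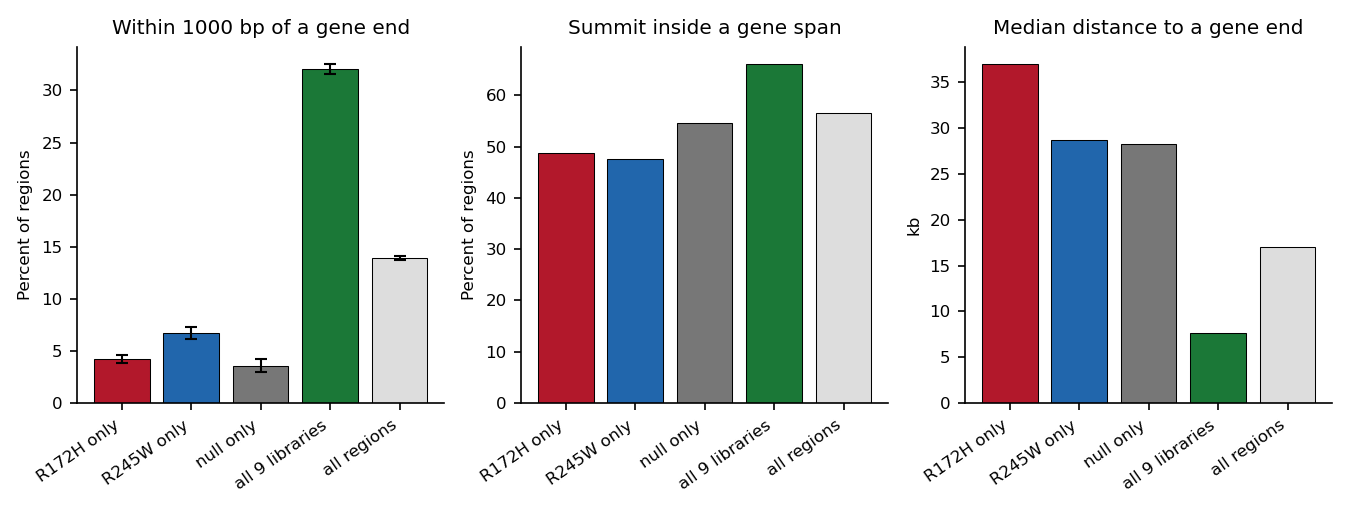
Share of regions within 1000 bp of a gene end (left, bars give Wilson 95% intervals), share overlapping a gene span (middle) and median distance to a gene end in kb (right). Bars are R172H-only, R245W-only, null-only, all-9 and all regions. The middle share counts any overlap of the region, although its panel title names the summit. R172H-only regions lie at a gene end in 4.22% of cases and at a median distance of 37.0 kb, against 32.1% and 7.66 kb for regions called in all 9 libraries.

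Some members lay side by side. Counting along each chromosome over all merged regions, 3905 of 12214 R172H-only regions (32.0%) had another as their direct neighbour, against 21.6% of R245W-only and 12.6% of null-only regions. These shares also move with the number of regions in each class. The longest runs were in Tshz2, a zinc-finger homeobox gene, with 9 members in a row at chr2:169635036-169750592 and 8 more at chr2:169777408-169904356. Runs of 8 lay at Cntn6, a neural cell adhesion gene, at Slc15a5, a solute carrier gene, across the start of the Mir344 stretch, at Cradd and at Abca13. Runs of 7 lay at Sulf1 and between Trpc6 and Pgr. The run within and beside Cradd was the tightest of the runs of 8, with all its members inside 46.9 kb (chr10:95145465-95192377).

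Counted over whole gene spans, a view chosen after the values were seen, several long genes held many R172H-only regions. The share was 9.83% over all regions, inside genes or outside. The genes named here were taken from those with the most members in their span, which favours high shares. Etl4 held 25 of its 45 regions as members, Tshz2 20 of 30, Cacna2d3, a calcium channel subunit gene, 19 of 35, and Sema6d, a semaphorin gene, 14 of 26. Tshz2 held no region that was called in all 9 libraries. Macrod2 held 20 of 53, Lrmda 20 of 67 and Pde4d, a cyclic AMP phosphodiesterase gene, 17 of 79, with 7, 16 and 21 regions called in all 9 libraries.

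Assigned to the nearest gene end within 50000 bp, 7036 members fell to 4679 of 17566 genes (26.6%), and members made up 7.78% of all assigned regions. The 20 genes named here had 6 to 12 members each. C1qtnf7 led with 12 of 22 regions, followed by Cradd, a death-domain adaptor of caspase signalling, with 10 of 21, and Adgrd1, an adhesion G protein-coupled receptor gene, with 9 of 17. Next came Hs3st3a1, a heparan sulfate sulfotransferase gene, and Parp8, each with 8 of 16. Gab1, an adaptor of receptor tyrosine kinases, had 8 of 30 and Meis1, a homeobox cofactor of Hox proteins, 8 of 31. At Igf2 and Slc15a5, 7 of 8 regions were R172H-only and none was called in all 9 libraries. Aldh1a2 had 7 of 13, Kdr, the VEGF receptor gene of endothelium, 7 of 14, and Gata6, an endoderm and heart transcription factor, and Gpam, a glycerolipid synthesis gene, 7 of 15 each. Fndc1 had 7 of 17 and Arhgap42, a GTPase-activating protein gene, 7 of 19. The rest were Mei4, Tshz2, Zfp385b, Eva1a and Tnfrsf21, the death receptor 6 gene, with 6 each of 9 to 12 regions. In all 20 genes had exactly 6 members, and these 5 were taken by the higher share of their regions that are members. These counts depend on the assignment distance: within 20000 bp, 15 of the 20 moved by over 1.5 times, C1qtnf7 having 4 members and Gab1 3.

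**Figure D3:**
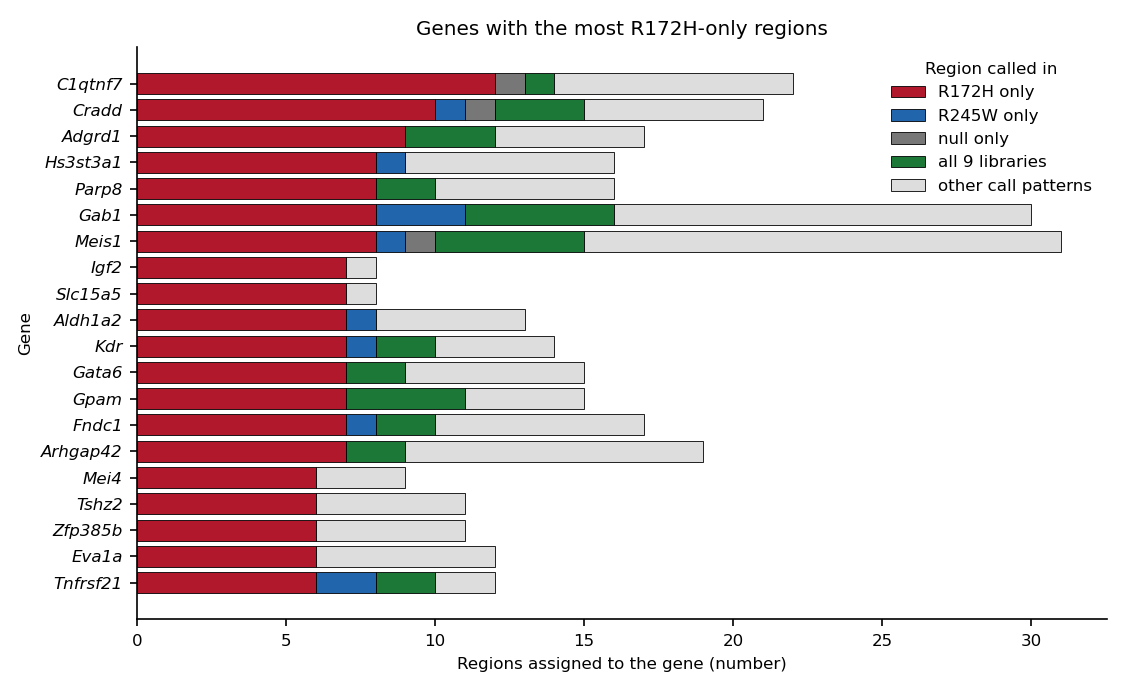
Number of regions (x axis) assigned to each of the 20 genes with the most R172H-only regions, split by the libraries in which the region was called. Igf2 and Slc15a5 have 7 R172H-only regions of 8, whereas Gab1 and Meis1 have 8 of 30 and 8 of 31.

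Among members assigned to these genes, the strongest of each gene had a lowest percentile of 47.0 to 92.4. At Tshz2, where a stronger member 97799 bp from a gene end is not assigned, it lay at chr2:169666242-169666952 within the gene, with pile-ups of 301, 314 and 305 in R172H libraries 1, 2 and 3. At Eva1a, an autophagy gene, it lay 39613 bp outside the gene, with 291, 310 and 292. At Adgrd1 it lay within the gene, with 259, 265 and 249. All 3 were above the median pile-up of a member in every library. At Meis1 the strongest member had 181, 193 and 182, at Cradd 187, 198 and 202, and at C1qtnf7 145, 156 and 132. At Kdr it had 112, 119 and 101 and at Gata6 120, 137 and 124. At Gab1 the member with the highest lowest percentile, 49.9, had 46, 56 and 51, and the member with the highest pile-ups had 92, 111 and 109 at a lowest percentile of 38.2.

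The 30 gene lists were compared by the share of their assigned regions that were R172H-only, against 7.78% over all genes. The retinoic acid list had the highest share, 27 of 162 regions (16.7%), with members at 11 of 18 genes. Aldh1a2 carried 7 of them, Stra6, the receptor that imports retinol, 5 of 11 regions, Aldh1a1, a second retinaldehyde dehydrogenase gene, 4 of 14, and Rarb, a retinoic acid receptor gene, 3 of 11. The kidney and urogenital list followed with 22 of 158 (13.9%): Wt1 had 5 of 21, Pax8, a kidney and thyroid factor, 4 of 15, and Tcf21 and Osr2, mesenchymal factors, 3 of 5 and 3 of 8.

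Cytokines and chemokines had 19 of 137 regions as members (13.9%), among them 4 of 21 at Il33, 3 of 5 at Il1b, the interleukin-1 beta gene, and 2 of 5 at Il1rn. Receptor tyrosine kinases and their adaptors had 46 of 353 (13.0%). Beside Gab1 and Kdr, Egfr had 6 of 24, Epha4, an ephrin receptor gene, 5 of 9 and Grb14, an adaptor gene, 4 of 14. The Wnt list had 41 of 325 (12.6%), with 5 of 11 at Sfrp1, a secreted Wnt inhibitor, 5 of 19 at Wnt7b, a ligand, and 3 of 9 at Fzd6, a receptor. Endothelial markers had 14 of 112 (12.5%), of which Kdr supplied 7, and without Kdr 7 of 98 (7.14%), below the share over all genes. Matrix proteases had 15 of 130 (11.5%), with 4 of 8 at Adam12. Leaving out the gene with the most members, an alternative added after values were seen, the other 6 of these 7 lists had 9.02% to 13.4%. Each of the 7 stayed above the share over all genes in all 18 settings compared, which do not include leaving out a gene. The receptor tyrosine kinase share was 7.58% against 6.51% over all genes with assignment within 20000 bp. The settings reuse the same 9 peak lists, and the gene lists were chosen with earlier results known, so this stability is not independent support.

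Lists close to the background included fibroblast matrix, 31 of 400 (7.75%), osteosarcoma suppressors and oncogenes, 16 of 201 (7.96%, with 4 of 14 at Myc), and housekeeping genes, 6 of 78 (7.69%). The canonical p53 targets had 10 of 147 (6.80%), with 3 of 11 at Fas, the death receptor gene, and 2 of 7 at Btg2. Below it were the osteoblast lineage with 6 of 177 (3.39%), 2 of them at Col1a2, skeletal muscle with 2 of 85 (2.35%) and cell cycle genes with 0 of 75. The remaining lists lay between 4.49% (haematopoietic) and 10.5% (smooth muscle and pericyte).

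As a check of the label, ends of 12 to 14 of 22 osteoblast lineage genes had a peak in R172H libraries, against 14 or 15 in R245W and 13 in null libraries. Over all protein-coding genes, 13533 to 13646 of 21887 had an open end in R172H libraries, so the osteoblast share was near that of any gene. Runx2, Sp7, Alpl and Col1a1, early osteoblast genes, were among those open in all 9. Genes of mature osteoblasts and osteocytes were mixed: Spp1 was open in all 9, Sost in 1 R172H and 2 R245W libraries, Mepe and Bglap2 in 1 R245W library each, and Bglap, Ibsp, Dmp1, Phex and Ifitm5 in none. Ends of endothelial markers had a peak at 3 to 5 of 16 genes in R172H, 7 in R245W and 4 to 6 in null libraries. Ends of haematopoietic markers had one at 9 or 10 of 18 in R172H, 9 to 11 in R245W and 8 in null libraries. In R172H libraries, skeletal muscle had 5 to 7 of 16 and neural markers 10 or 11 of 20. Smooth muscle and pericyte markers had 13 or 14 of 16, chondrocyte 11 or 12 of 18, epithelial 10 or 11 of 18 and adipocyte 8 or 9 of 14. Open ends thus did not single out the osteoblast lineage. Trp53, which encodes p53, had an open end in all 9 libraries and no R172H-only region assigned to it.

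The share of R172H-only regions differed between chromosomes. It was highest on chromosomes 2 (12.2% of all regions there), 9 (12.2%), 8 (12.1%), 18 (12.1%) and 19 (11.5%), and lowest on 4 (7.03%), 3 (7.56%), 7 (7.94%), 17 (8.01%) and 10 (8.36%). The level of regions called in all 9 libraries, which the rule did not use, moved with it. On chromosome 8 their median log2 pile-up, centred per library, was 0.31 ± 0.017 in R172H, 0.08 ± 0.010 in R245W and −0.10 ± 0.011 in null libraries (SD, n = 3 each). On chromosome 4 it was −0.22 ± 0.0023 in R172H, 0.11 ± 0.019 in R245W and 0.25 ± 0.014 in null libraries. The R172H minus other difference was 0.30 on chromosome 2, 0.19 on 9, 0.04 on 18 and 0.31 on 19, against −0.36 on 3. Across 20 chromosomes the share of members and this difference had a Pearson correlation of 0.790 and a Spearman correlation of 0.741, given as a description because the points share libraries and depth. Copies of a chromosome in each line were not measured, and the part of such levels in the calls was not tested.

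**Figure D4:**
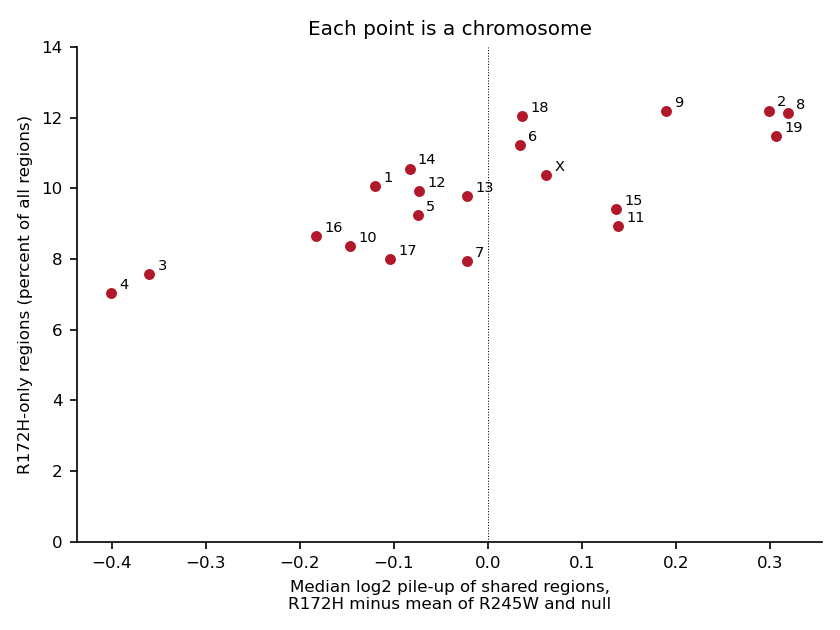
Share of merged regions on each chromosome that are R172H-only (y axis, percent) against the difference in median log2 pile-up of the regions called in all 9 libraries, R172H minus the mean of R245W and null (x axis); each point is a chromosome. Chromosomes 2, 8 and 19 lie at the upper right and chromosomes 3 and 4 at the lower left.

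Regions called in all 9 libraries have a height in every library, and the rule did not use these heights. Some members lie directly beside such a region, so the heights may not be independent of the members. At Gata6 a member at chr18:11054360-11054948 follows the shared end region at chr18:11051510-11054350. Of 12214 members, 11160 had no peak of the other lines within 1000 bp. How far members and shared heights depend on each other was not tested. The recovered log2 pile-ups of the 36473 regions called in all 9 libraries were compared by limma, R172H against the mean of R245W and null. Benjamini-Hochberg adjustment was used, with a threshold of 0.05. In R172H 19264 shared regions (52.8%) were higher and 9793 (26.8%) lower, with a median log2 difference of 0.23. Higher regions made up 66.3% of these calls, but 57.2% when libraries were scaled by their background pile-up and 55.9% after quantile normalization, so the split depends on scaling. Shared regions within 10000 bp of an R172H-only region were higher in 54.4% and lower in 28.6% of 4161 cases, against 55.8% and 25.4% of 12857 at 10000 to 50000 bp, and 50.5% and 27.4% of 19455 over 50000 bp away. With libraries centred on their medians, the nearest regions were thus not the most often higher. From nearest to farthest, the shares higher were 46.5%, 46.7% and 39.8% when scaled by background. After quantile normalization they were 46.3%, 45.5% and 37.6%, so this order also depends on scaling. Centred on each chromosome's median, the shares of higher calls were 53.8% within 10000 bp and 54.5% beyond 50000 bp.

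The number of R172H-only regions around a gene went with the height of its shared gene-end region, a comparison added after values were seen. Of 10832 genes with a gene-end region called in all 9 libraries, 7685 (70.9%) had it higher in R172H and 1208 (11.2%) lower. Among 7980 genes with no assigned member, 69.7% were higher and 11.5% lower, with a median log2 difference of 0.35. With 1 member 73.0% of 1923 genes were higher, with 2 members 75.3% of 611, and with 3 or 4 members 79.2% of 274. With 5 or more members 41 of 44 genes (93.2%) were higher and 0 lower, with a median of 0.81. In all 78 genes had 5 or more members, and those without a shared gene-end region, such as C1qtnf7, Adgrd1, Igf2 and Aldh1a2, could not be compared. In 41 of these 44, every R172H library was above all 6 others, against 57.9% of all gene-end regions and 39.6% of all shared regions. Scaled by background, the shares from 5 or more members down to none were 93.2%, 68.2%, 65.5%, 60.9% and 55.5%, and after quantile normalization 84.1%, 60.9%, 53.8%, 50.5% and 43.9%. Centred on chromosome medians they were 90.9%, 78.2%, 77.7%, 77.2% and 76.8%, so that the groups with 4 members or fewer lay close together. Genes with many members also have many regions, and no difference between these groups of genes was tested.

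Single genes show the size of these differences, with log2 pile-ups centred on each library's median shared region. Epha4 had the largest among the 44 genes, a log2 difference of 2.89. The Gata6 end region had 2.22, 2.32 and 2.34 in R172H libraries, against 0.03, 0.23 and 0.17 in R245W and 0.63, 0.54 and 0.59 in null libraries, a difference of 1.93 ± 0.062 (SE, limma adjusted p = 1.09e-09). All R172H values stood above the others. The Kdr end region had 0.53, 0.59 and 0.68 in R172H, against −0.16, −0.16 and −0.01 in R245W and −2.14, −2.68 and −2.28 in null libraries, a difference of 1.84 ± 0.11 (SE, limma adjusted p = 6.56e-08). The null libraries lay lowest, and the R172H libraries stood above those of both other lines.

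The Gab1 end region had 2.99, 2.97 and 2.95 in R172H, against 1.98, 2.02 and 2.05 in R245W and 1.89, 1.79 and 1.79 in null libraries, a difference of 1.05 ± 0.052 (SE, limma adjusted p = 2.17e-08). Gab1 lies on chromosome 8, where shared regions as a whole were 0.32 higher in R172H. The Meis1 end region had 1.91, 1.85 and 1.83 in R172H, against 0.67, 0.71 and 0.68 in R245W and 1.26, 1.36 and 1.29 in null libraries, a difference of 0.87 ± 0.052 (SE, limma adjusted p = 9.23e-08). At Wt1, whose other end carries the strongest member, the shared region at the opposite end of the gene had 1.60, 1.33 and 1.35 in R172H, against 0.48, 0.44 and 0.29 in R245W and 0.13, 0.02 and −0.17 in null libraries, a difference of 1.23. Parp8 (0.82), Tnfrsf21 (1.23) and Egfr (0.98) were also higher. Not past the threshold were Cradd at −0.08 (limma adjusted p = 0.514) despite its 10 members, Ezr at 0.01 (adjusted p = 0.902) and Gap43 at −0.32 (adjusted p = 0.0606). At Cradd the R172H values of −0.37, −0.17 and −0.30 lay among the R245W values of −0.53, −0.28 and −0.08 and the null values of −0.15, −0.27 and 0.10.

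**Figure D5:**
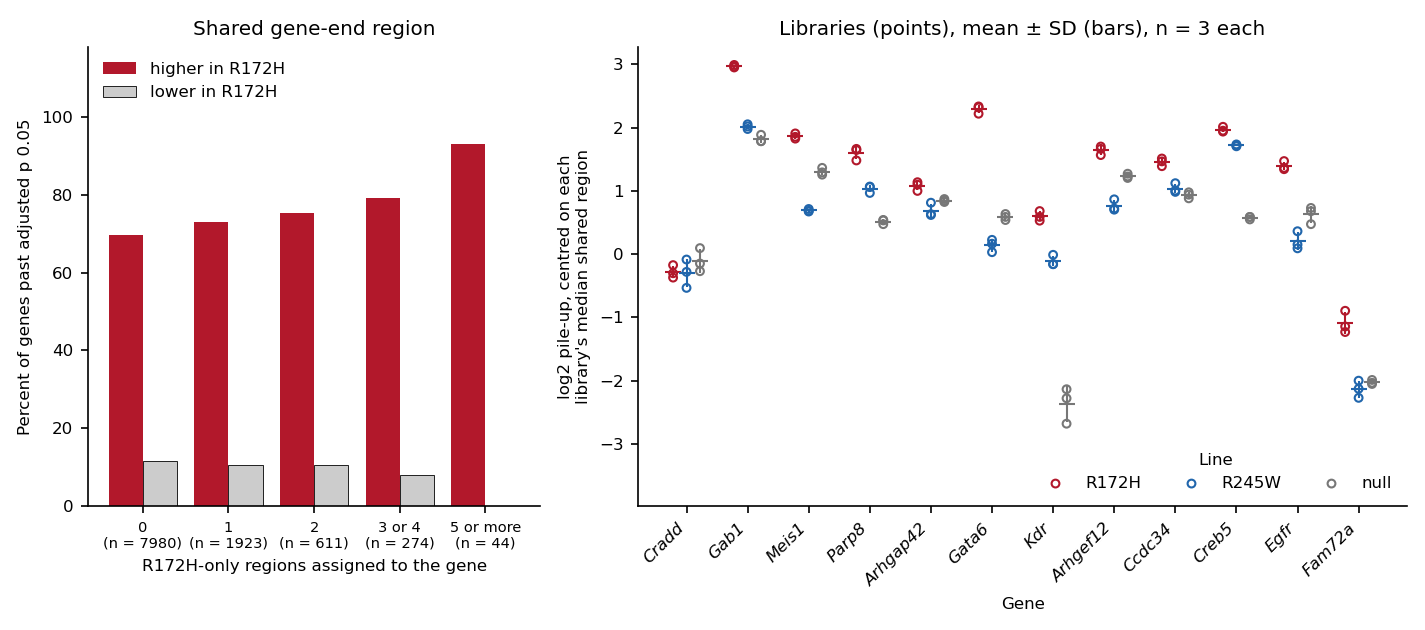
Left, percent of genes (y axis) whose shared gene-end region was higher or lower in R172H past a limma adjusted p of 0.05, by the number of R172H-only regions assigned to the gene (x axis). Right, centred log2 pile-up of that region in each library (points, with mean ± SD, n = 3 per line). Genes shown have the most members among genes with such a region, and R172H lies above both other lines at each except Cradd.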

How the data were processed

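Values came from 9 ATAC-seq peak lists, 1 per library. Bowtie 1.1.2, MACS2 2.1.0, Trimmomatic 0.33, bcl2fastq 2.17, deepTools and build GRCm38 are named, with no roles, in the submitters' processing notes. Settings, filters and any Tn5 shift: not given in the sources used here. The authors' deposited lists give each peak a −log10 p-value, a −log10 q-value, a fold ratio to the local background and a score. The score was not used. The lowest −log10 q was 1.3, which is a q of 0.05. From the deposited fold and p, the whole pile-up (signal) and the Poisson background at each summit were solved; in 99.998% of peaks the deposited −log10 p was recovered within 0.001. The most frequent background served as relative depth; read totals are not given, and precision rests on 3 libraries per line.

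Lists were merged as stated in the results. Genes, promoter windows and miRNA sequences were RefSeq's (GRCm38.p6). The gene table holds spans without strand or exons, so exonic or intronic position is not given. Each region went to the closest end of a protein-coding gene, up to 50000 bp away. Promoter and miRNA windows on chromosome 18 were not used. The p53 half-site and TATAAA were added to the motifs after values were seen.

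limma 3.58.1 in R 4.3.3 fitted 1 model with 3 groups to log2 pile-ups of regions called in all 9 libraries, each library centred on its median. The fit was also run on simulated data with independent noise and few changed regions. In the real data most shared regions were called, so that run cannot judge the calls made here. Members, gene lists and tests were chosen with earlier results of these data known. Named genes were the 20 with the most members (ties by the share of a gene's regions that are members), the 10 strongest members overall and at gene ends, up to 4 genes per list with at least 2 members, and the longest runs; some items this rule names are not reported here. The genes with 5 or more members, the gene span counts and the comparison of gene-end regions by number of members were added after values were seen. No batch is given in the labels. Alternatives covered peak thresholds, list length, overlap, calls, windows, scaling, leaving out libraries one by one and the replicate block. Scripts ran under Python 3.11.15 (scipy 1.17.1, pandas 2.3.3, numpy 2.4.6); plots used matplotlib 3.10.9.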

Additional observations from a re-analysis of the deposited data

How the results depend on the processing

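The number of R172H-only regions was 12214, and 11160 to 16337 under the alternatives; leaving out each library in turn gave 12397 to 13775. The share at gene ends, 4.22%, was 3.86% when no other peak was allowed within 1000 bp, 3.05% with a 500 bp window, 6.67% with a 2000 bp window, and 4.18% to 4.39% without each library. Shared regions higher in R172H numbered 18421 to 19135, and lower ones 9365 to 9673, without each library. The replicate numbers did not pair the samples: same-numbered libraries of different lines had correlations of deviations of −0.0159 to 0.0217. With the replicate block 19189 regions were higher and 9730 lower. Of the 44 genes with 5 or more members and a shared gene-end region, 41 were higher with the block. Of the comparisons of member counts per named gene, 19 moved by over 1.5 times, 15 of them when regions were assigned within 20000 bp only; there C1qtnf7 had 4 members, Gab1 3, Aldh1a2 2 and Zfp385b 1. Arhgap42 had 11 when 2 of 3 R172H libraries sufficed, and Gata6 had 4 at −log10 q of 5 or more or with lists of equal length. Without the gene with the most members, the IGF list had 4.13% (9.30% with Igf2) and skeletal muscle 0 of 68 regions. Peak lists without read totals limit what an absent call can show.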
